A study of Homo sapiens with 6 samples.

Results

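The genes described here encode the amyloid precursor protein family and the enzymes that cut it: APP, APLP1 and APLP2, the β-secretases BACE1 and BACE2, and the γ-secretase subunits PSEN2, PSENEN, NCSTN and APH1A. They were measured on 6 Affymetrix arrays of TPC-1 cells, an established human papillary thyroid carcinoma line. Of the arrays, 3 came from cells given lentivirus with a control short hairpin RNA (control shRNA) and 3 from cells given lentivirus with an shRNA against SHCBP1, and no other treatment, genotype or time point is labelled. A probe set was taken where its annotation gives only 1 gene symbol and that symbol is one of these 9, which gave 46 probe sets of 44988 and 9 genes of 18132. The set was selected on results of this same comparison: APLP2 was known to be among the largest decreases, and the other 8 genes belong to its family or pathway. The values of these 9 genes are therefore given as a description, with no p-value. Their Entrez Gene numbers in the annotation are 351 (APP), 333 (APLP1), 334 (APLP2), 23621 (BACE1), 25825 (BACE2), 5664 (PSEN2), 55851 (PSENEN), 23385 (NCSTN) and 51107 (APH1A). The labels name neither a further shRNA against SHCBP1 nor a rescue, so the loss of SHCBP1 cannot be told apart from other effects of the hairpin.

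The precursor proteins cross the membrane once, are cut outside the membrane by α- or β-secretases, and are then cut inside the membrane by γ-secretase, which releases the cytosolic tail. In APP, the β-cut followed by the γ-cut yields amyloid-β, while the α-cut lies within the amyloid-β sequence and prevents its formation. γ-Secretase is a complex of a presenilin, which holds the active site, with nicastrin, APH1 and PEN-2, and it cuts many other membrane proteins such as Notch and CD44. APP and APLP2 are made in most tissues, whereas APLP1 is mainly neuronal. The cytosolic tails bind adaptor proteins, among them SHC1, the partner after which SHCBP1 is named.

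The 150 bases before the transcript start are shown for the pair of precursor genes that were lower and the pair of γ-secretase genes that were most clearly higher in the SHCBP1 shRNA arrays, as reference sequence for the promoters whose transcripts are compared below. They are RefSeq sequences of GRCh38.p14, written 5′ to 3′ on the gene's strand, and capitals mark matches to the motifs named after them.
APLP2, chr11:130070418-130070567, plus strand: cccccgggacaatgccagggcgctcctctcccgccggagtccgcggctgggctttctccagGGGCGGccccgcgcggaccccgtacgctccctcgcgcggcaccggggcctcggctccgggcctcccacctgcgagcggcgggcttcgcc
APP, the outer of its 2 listed starts, chr21:26171129-26171278, minus strand: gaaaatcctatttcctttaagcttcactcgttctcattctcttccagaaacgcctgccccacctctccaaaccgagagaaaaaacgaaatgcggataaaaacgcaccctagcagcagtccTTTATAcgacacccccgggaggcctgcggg
PSENEN, chr19:35745501-35745650, plus strand: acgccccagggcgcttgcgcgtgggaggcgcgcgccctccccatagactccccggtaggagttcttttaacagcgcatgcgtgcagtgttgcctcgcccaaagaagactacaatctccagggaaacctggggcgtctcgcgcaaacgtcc
APH1A, chr1:150269017-150269166, minus strand: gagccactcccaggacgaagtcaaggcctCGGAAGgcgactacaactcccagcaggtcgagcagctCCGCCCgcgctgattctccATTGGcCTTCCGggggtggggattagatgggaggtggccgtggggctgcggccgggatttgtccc

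Both strands were searched for 6 motifs. GGGCGG, the GC box read by SP1, lies in 36.8% of all 35116 windows of this length, CCAAT in 23.5%, CACGTG (E-box) in 4.57%, TGACGT (cyclic AMP response element core) in 5.39%, CGGAAG (ETS core) in 12.6% and TATAAA in 6.71%. The APLP2 window holds 1 GC box, and the outer APP window holds 1 TATAAA, on the strand opposite to the gene. The inner APP window holds 0 matches. The APH1A window holds 1 GC box, 1 CCAAT and 2 ETS cores, and the PSENEN window holds 0 matches. G and C make up 80.0% of the APLP2 window, 50.7% of the outer and 80.7% of the inner APP window, 63.3% of the PSENEN window and 66.0% of the APH1A window, beside a median of 60.0% over all windows. Among the other genes, the NCSTN window holds 3 ETS cores and 1 TGACGT, the PSEN2 window 2 GC boxes at 82.7% G and C, and the APLP1 window 2 GC boxes at 79.3%. Windows rich in G and C thus belonged to genes that were lower (APLP2 and the inner start of APP) and to genes that were higher relative to other genes (PSEN2 and APLP1).

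The arrays carry the knockdown and a shift in controls. SHCBP1, which encodes an SHC1 partner with a part in cytokinesis, fell by 1.54 ± 0.06 on the log2 scale (SE, n = 3 arrays per group; 2.91-fold) in the arrays labelled with its shRNA, by the mean of its 2 probe sets. The deposited log2 values have a median of 0 in every probe set, so a value says only how an array compares with the other arrays, and no expression level is left. The thyroid identity of the cells could therefore not be checked against marker levels, and the extraction text of the labels names another line, DLD1, a colorectal carcinoma line. The poly-A spike-in controls, added to the RNA before labelling, were 0.43 ± 0.04 higher (SE of the difference) on the log2 scale in the SHCBP1 shRNA arrays. The 28S ribosomal RNA probe sets were higher there by 2.80 (5′), 1.56 (middle) and 0.30 (3′), those of 18S ribosomal RNA differed by -0.24 to -0.58, and the 3′ minus 5′ difference of ACTB and GAPDH moved by -0.08 and -0.01; the part of these in the results was not tested. Every difference below is relative to other genes, and setting the arrays by the spike-in controls lowers each by that amount. The labels do not say that the 3 samples of a group were separate cultures, so errors cover only how these samples vary and may be technical. In a bulk sample, a change in RNA per cell cannot be told apart from a change in the share of cells that make it.

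The precursor genes APLP2 and APP were lower in the SHCBP1 shRNA arrays, and 3 of the 4 γ-secretase subunit genes (PSENEN, APH1A and PSEN2) were higher relative to other genes. When arrays are scaled by spike-in controls, PSENEN stays higher (0.42), APH1A comes close to 0 (0.07) and is no longer called, PSEN2 turns to -0.15, and APLP1, higher before, turns to -0.30. APLP2 was 3.63-fold lower and APP 2.09-fold lower. PSENEN was 1.81-fold, APH1A 1.41-fold and PSEN2 1.22-fold higher. NCSTN, BACE1 and BACE2 were lower and APLP1 higher by at most 1.12-fold.

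**Figure D1:**
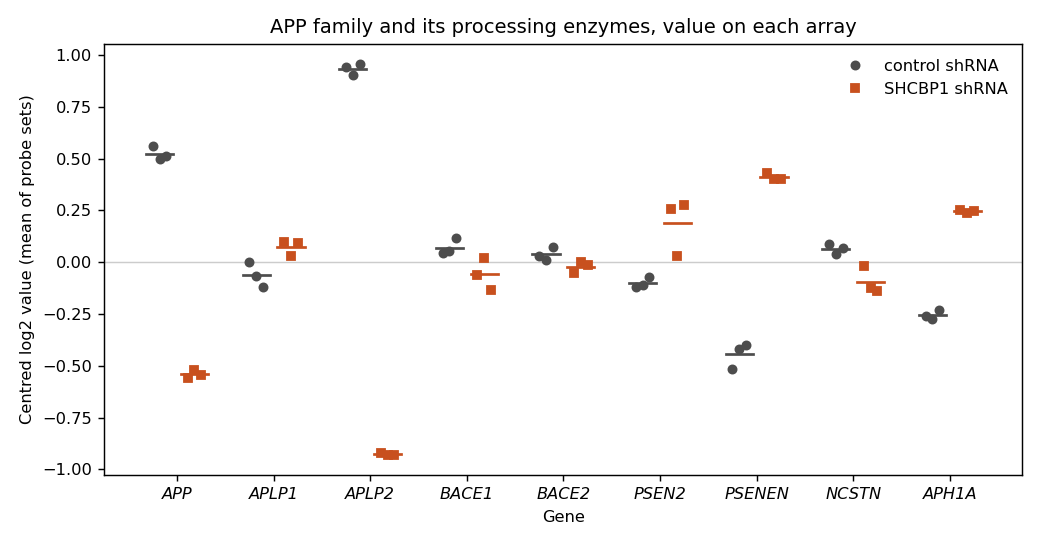
Centred log2 value (vertical axis) of each gene on each array, the mean of its probe sets, for 3 control shRNA arrays (grey circles) and 3 SHCBP1 shRNA arrays (orange squares); bars are group means. APLP2 and APP drop from above 0.49 to below -0.52, PSENEN and APH1A go the other way, as does PSEN2 with SHCBP1 shRNA replicate 2 nearer the controls, and the values of APLP1, BACE1, BACE2 and NCSTN run from -0.14 to 0.12.

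APLP2 encodes the most widely made relative of APP, a membrane protein known for binding to and guiding the turnover of other surface proteins. Its value was 0.94, 0.90 and 0.96 in control replicates 1, 2 and 3 and -0.92, -0.93 and -0.93 in SHCBP1 shRNA replicates 1, 2 and 3. The SHCBP1 shRNA arrays thus lay within 0.02 of each other and far below every control array. The difference was -1.86 ± 0.03 (SE, n = 3 per group; 95% confidence interval -1.94 to -1.79), the 9th lowest of 18132 genes and lower than that of SHCBP1 itself, which was the 27th lowest. The share of all genes with a larger difference in either direction was 0.0827%.

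APP itself, the source of amyloid-β, was 0.56, 0.50 and 0.51 under control shRNA and -0.56, -0.52 and -0.54 under SHCBP1 shRNA. The spread within a group was again small beside the distance between the groups, which did not overlap. The difference was -1.07 ± 0.03 (SE, n = 3 per group; 95% confidence interval -1.15 to -0.99), the 138th lowest. It was smaller in size than that of APLP2. APLP1, the neuronal member of the family, was 0.00, -0.07 and -0.12 under control shRNA and 0.10, 0.03 and 0.09 under SHCBP1 shRNA. The groups of its mean lay side by side without overlap, with a difference of 0.13 ± 0.04 (SE). Of its 3 probe sets, 11718756_a_at differed by 0.18 without overlap, while 11747622_a_at and 11755877_x_at differed by 0.09 and 0.13 with overlap.

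The 4 probe sets of APLP2 were all lower, with no overlap between groups in any of them. Probe sets 11738036_s_at, 11741086_x_at and 11730788_a_at differed by -2.14, -2.08 and -2.03. Probe set 11741085_a_at differed by only -1.19 ± 0.04 (SE), with values of 0.62, 0.58 and 0.57 against -0.61, -0.63 and -0.57. The gene's mean of -1.86 thus averages a group of 3 larger differences and 1 smaller one. Which transcript forms each probe set reads was not tested.

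Of the 13 probe sets of APP, 12 had groups that did not overlap, all with the SHCBP1 shRNA arrays lower. Differences ran from -1.31 to -0.0044, with a median of -1.24, and 11 of the 13 lay between -1.31 and -0.99. The 2 that stood apart, 11762803_at and 11762804_x_at, are annotated to the same cDNA. The first was 0.07, -0.02 and -0.06 against -0.10, 0.02 and 0.05, overlapping between groups (difference -0.0044 ± 0.06, SE). The second was 0.50, 0.10 and 0.15 against -0.20, -0.30 and -0.10 (difference -0.46 ± 0.11, SE), with control replicate 1 well above the other 2. Probe sets of a gene share its transcripts, and those ending in _x_at or _s_at can share probes with other transcripts or genes, so they are not replicates.

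**Figure D2:**
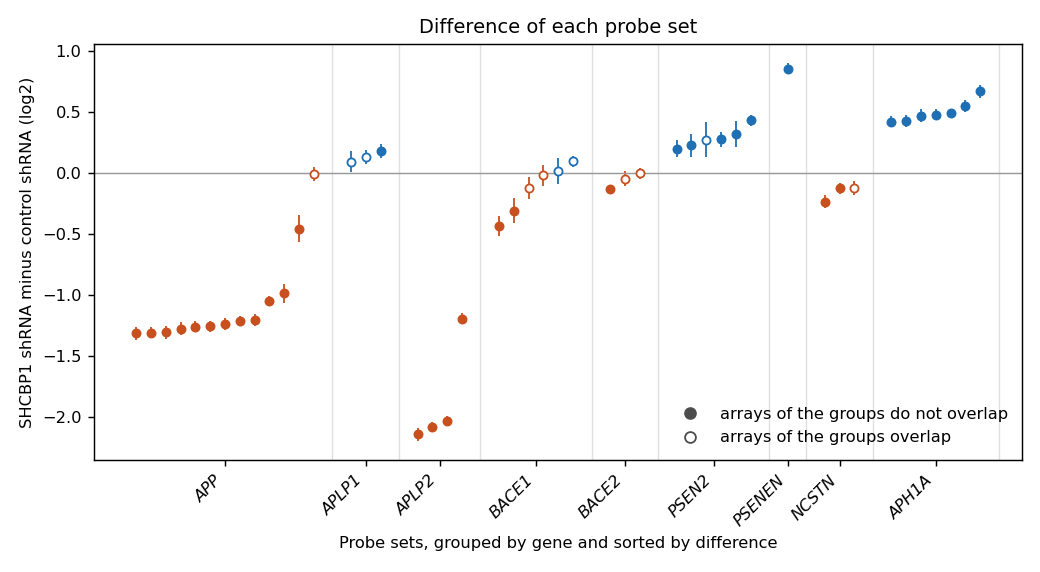
Difference between groups (SHCBP1 shRNA minus control shRNA, log2, vertical axis) for each of the 46 probe sets, sorted within each gene; bars are moderated SE, filled points have groups that do not overlap, orange is lower and blue is higher. Of 13 APP probe sets 11 lie between -1.31 and -0.99 and 2 stand apart, 1 of 4 APLP2 probe sets is smaller in size than the other 3, and all 7 of APH1A lie between 0.42 and 0.67.

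BACE1 is the aspartyl protease that makes the β-cut in APP. It was 0.04, 0.05 and 0.12 under control shRNA and -0.06, 0.02 and -0.14 under SHCBP1 shRNA, a difference of -0.13 ± 0.05 (SE). The groups did not overlap, but SHCBP1 shRNA replicate 2 came within 0.03 of the lowest control. Its 6 probe sets disagreed: 11716390_a_at and 11753658_x_at differed by -0.44 and -0.31, and the other 4, whose groups overlapped, by between -0.12 and 0.10. BACE2, a related protease that cuts APP mainly at other positions, was 0.03, 0.01 and 0.08 against -0.05, 0.00 and -0.01, a difference of -0.06 ± 0.04 (SE). The interval for BACE2 runs from -0.14 to 0.02 and includes 0. Of its 3 probe sets, 11756068_a_at differed by -0.13 without overlap, and the other 2 by -0.05 and -0.0024 with overlap.

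PSENEN encodes PEN-2, the smallest γ-secretase subunit, which is needed for the presenilin to be cleaved into its active form. Its single probe set, 11719381_a_at, was -0.51, -0.42 and -0.40 under control shRNA and 0.43, 0.40 and 0.40 under SHCBP1 shRNA. All 3 SHCBP1 shRNA values lay well above all 3 controls. The difference was 0.86 ± 0.04 (SE, n = 3 per group; 95% confidence interval 0.76 to 0.95), the 111th highest of all genes, and it rests on this 1 probe set.

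APH1A encodes the scaffold subunit on which the complex assembles. It was -0.26, -0.27 and -0.23 under control shRNA and 0.25, 0.24 and 0.25 under SHCBP1 shRNA, a difference of 0.50 ± 0.03 (SE), the 637th highest. All 7 of its probe sets were higher without overlap, from 0.42 to 0.67, and 5 of the 7 end in _x_at. The 2 that do not, 11718148_a_at and 11744723_a_at, gave the lowest and the highest of these differences.

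PSEN2, a catalytic presenilin, was -0.12, -0.11 and -0.07 under control shRNA and 0.26, 0.03 and 0.27 under SHCBP1 shRNA. The groups did not overlap, but SHCBP1 shRNA replicate 2 lay much closer to the controls than the other 2 did, which gave the widest spread of the 9 genes (SD 0.137 in that group). The difference was 0.29 ± 0.07 (SE), or 0.37 without that array. It was 0.25 without SHCBP1 shRNA replicate 1 and 0.24 without SHCBP1 shRNA replicate 3. All 6 probe sets were higher, by 0.20 to 0.43. In 11723673_a_at, SHCBP1 shRNA replicate 2 was at -0.11, inside the control range, while in 11723672_a_at it was at 0.18, beside 0.18 and 0.26.

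NCSTN encodes nicastrin, the subunit that receives substrates, and went the other way from the other 3 subunits. It was 0.09, 0.04 and 0.07 under control shRNA and -0.02, -0.12 and -0.14 under SHCBP1 shRNA, a difference of -0.16 ± 0.04 (SE). Its 3 probe sets differed by -0.23, -0.12 and -0.12, and only that of 11715677_x_at overlapped between groups, through control replicate 2 and SHCBP1 shRNA replicate 1.

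In limma's moderated test over all genes, with a Benjamini-Hochberg adjusted p under 0.05, 3 of the 9 genes were called lower (APP, APLP2 and NCSTN) and 4 higher (APLP1, PSEN2, PSENEN and APH1A), while BACE1 and BACE2 were not called. Of all 18132 genes, 19% were called lower and 22% higher, 41% in all. Since this contrast chose the genes, these calls stand only beside that background and support nothing. In 5 genes all SHCBP1 shRNA arrays lay below all controls and in 4 above, beside 22.7% and 27.3% of all genes. Of the 46 probe sets 21 lay below, 14 above and 11 overlapped, beside 22.5% of all probe sets below and 25.8% above. The median difference was -0.06 over the 9 genes and 0.02 over all genes, and the median size was 0.29 and 0.11.

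Leaving out a single array shows only how the calls depend on it and adds no support, since this contrast chose the genes. The calls of APP, APLP2, PSEN2, PSENEN and APH1A held when any single array was left out. That of APLP1 was lost without control replicate 2 or 3 or SHCBP1 shRNA replicate 1 or 3, with differences of 0.10 to 0.17 over the 6 fits. That of NCSTN was lost without control replicate 1 or 3 or SHCBP1 shRNA replicate 2 or 3 (-0.20 to -0.14 over the 6 fits), and BACE1 was called without SHCBP1 shRNA replicate 2 (-0.17).

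Scaling by the spike-in controls moved the 9 genes alike and changed some directions. APLP2 and APP remained lower, at -2.29 and -1.50, and PSENEN higher, at 0.42. APH1A came close to 0, at 0.07, and PSEN2 and APLP1 turned negative, at -0.15 and -0.30. The higher values of APLP1 and PSEN2 thus hold only relative to other genes, and APH1A was no longer called (0.07 ± 0.05, SE). NCSTN, BACE1 and BACE2 became -0.59, -0.56 and -0.49. The spike-in shift moves with the groups, and its part in these differences was not tested.

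**Figure D3:**
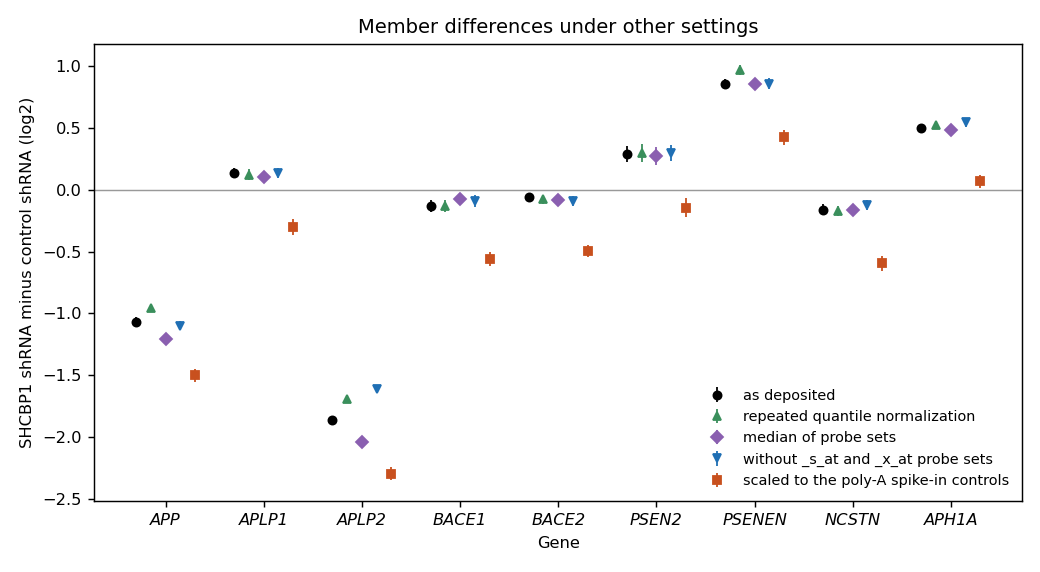
Difference between groups (log2, vertical axis) for each gene with the deposited values (black circles), repeated quantile normalization (green triangles), the median of probe sets (purple diamonds), without _s_at and _x_at probe sets (blue triangles) and scaled by the spike-in controls (orange squares); bars are moderated SE. APLP2 and APP stay below -0.9 and PSENEN above 0.4 in all 5, while PSEN2 and APLP1 cross 0 with spike-in scaling.

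The 5 genes outside the set whose 6 array values lay nearest to those of APLP2, by Euclidean distance over the gene's mean on each of the 6 arrays, were TXNIP (0.0625), GNPNAT1 (0.0927), PDCD4 (0.109), PARK7 (0.110) and FAM210B (0.112). Their differences ran from -1.90 for PDCD4 to -1.79 for PARK7. APP was the 135th nearest gene to APLP2, at a distance of 0.976. This likeness is over 2 groups of 3 arrays and mainly matches the size of the difference.

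Other genes of APP cutting, traffic and signalling were taken from 8 lists of 67 genes, of which 64 were tested. The lists were written from general knowledge with earlier results of these data known, so their counts and p-values are given as description. By limma with Benjamini-Hochberg adjustment over all genes, 19 of the 64 fell and 15 rose, beside 19% and 22% of all genes, and their median difference was 0.01, beside 0.02. After spike-in scaling 60 were lower and 0 higher. The directions of rises given below therefore hold relative to other genes.

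The α-secretases make the cut that prevents amyloid-β, and 3 of 3 fell, beside 19% of all genes called lower. ADAM10, the main α-secretase of APP, was 0.33, 0.27 and 0.35 under control shRNA and -0.39, -0.31 and -0.30 under SHCBP1 shRNA, and fell by 0.65 ± 0.04 on the log2 scale (SE; limma, Benjamini-Hochberg adjusted p = 1.30e-05). ADAM9 fell by 1.28 with 4 probe sets between -1.33 and -1.25, and ADAM17 fell by 0.82 with 4 probe sets between -1.32 and -0.04. Of 4 other proteases that can cut APP, 2 fell: legumain (LGMN), an asparaginyl protease of lysosomes, by 0.95 ± 0.03 (SE) and the lysosomal protease gene CTSB by 0.93 ± 0.03 (SE). MEP1B and MMP24 did not pass, at -0.03 and 0.05.

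APH1B, the alternative to APH1A in the γ-secretase complex, was -0.27, -0.28 and -0.22 under control shRNA and 0.20, 0.33 and 0.36 under SHCBP1 shRNA. It rose by 0.55 ± 0.05 (SE; limma, Benjamini-Hochberg adjusted p = 7.57e-05), with 6 probe sets between 0.16 and 0.85, and after spike-in scaling its difference was 0.12 (adjusted p = 0.0617). Relative to other genes, the APH1 genes were thus both higher, APH1A by 0.50 and APH1B by 0.55.

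Among 15 regulators of secretase maturation and traffic, 3 fell and 6 rose. GSAP, which encodes a γ-secretase activating protein, fell by 0.38 ± 0.07 (SE), and GGA1, an adaptor that sorts BACE1, by 0.30 ± 0.04 (SE). The other GGA genes of the list went the other way. GGA2 rose by 0.20 ± 0.03 and GGA3 by 0.23 ± 0.04 (SE), and they were at -0.23 and -0.20 after spike-in scaling. RTN3, a reticulon that binds BACE1, rose by 0.30 ± 0.03 (SE), in 7 probe sets between 0.25 and 0.38, and was at -0.14 after spike-in scaling.

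Of 14 adaptors that bind the precursor tails or their partners, 4 fell and 4 rose. The endocytic adaptor gene DAB2 rose by 0.53 ± 0.05 (SE) and the kinesin light chain gene KLC1 by 0.46 ± 0.04 (SE), with probe sets from 0.05 to 0.76. After spike-in scaling these were 0.10 and 0.02. The acetyltransferase gene KAT5, a partner of the APP tail and its adaptor APBB1, fell by 0.31 ± 0.04 (SE). SHC1, named here after its value was seen, fell by 0.18 ± 0.04 (SE).

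Of 9 sorting and endocytic receptors and their coats, 3 fell and 1 rose. The lipoprotein receptor gene LRP8 fell by 0.60 ± 0.04 (SE) and the sorting nexin gene SNX27 by 0.27 ± 0.04 (SE). VPS26A of the retromer coat rose by 0.45 ± 0.03 (SE), and its difference was 0.02 after spike-in scaling. VPS35 of the same coat differed by -0.03, with overlap between groups, and did not pass. Of 4 amyloid-β-degrading enzymes 2 fell: IDE, the insulin-degrading enzyme, by 0.66 ± 0.04 (SE) and the endothelin-converting enzyme gene ECE1 by 0.26 ± 0.04 (SE), while MME (neprilysin) differed by 0.00027 and did not pass.

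Of 14 other substrates of BACE1 or γ-secretase, 2 fell and 3 rose. CD44 fell by 0.70 ± 0.04 (SE), with 10 probe sets from -1.34 to -0.32. NOTCH2 and NOTCH4 rose by 0.17 ± 0.04 and 0.16 ± 0.04 (SE), and turned to -0.26 and -0.28 after spike-in scaling. The call of NOTCH4 was lost without control replicate 1 or 3 or SHCBP1 shRNA replicate 3 (limma with Benjamini-Hochberg adjustment, adjusted p from 0.0579 to 0.0603).

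**Figure D4:**
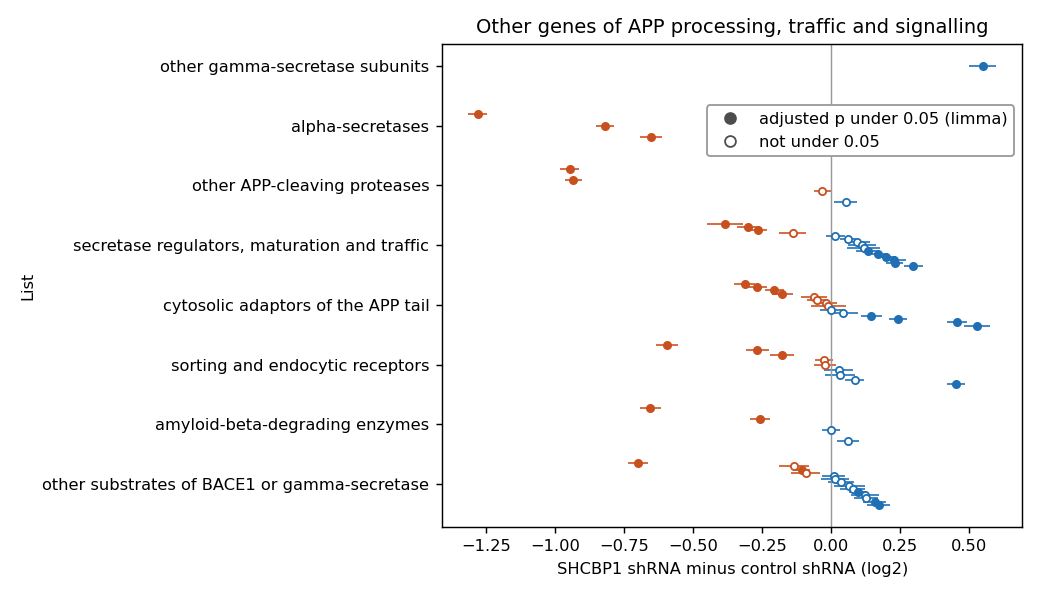
Difference between groups (SHCBP1 shRNA minus control shRNA, log2, horizontal axis) of the 64 tested genes outside the 9, by list (vertical axis); bars are moderated SE, filled points passed limma's test, orange is lower and blue is higher. The 3 α-secretases, LGMN, CTSB, IDE and CD44 lie below -0.6, APH1B at 0.55, DAB2 at 0.53, and most other genes between -0.4 and 0.3.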

How the data were processed

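RNA of 3 control shRNA and 3 SHCBP1 shRNA samples was hybridised to 1 array each, and the titles give each sample's group and number. The authors deposited 1 log2 value per probe set and array, made with RMA per the submitters' processing notes. The log base is not stated and was taken from RMA. In the table the 6 values of a probe set have a median of 0 (within 1e-06), which leaves no level and allows no filter on dim genes. RMA's quantile step removes shifts common to all transcripts.

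Probe sets annotated to only 1 symbol were averaged into 18132 genes. Differences (SHCBP1 shRNA minus control shRNA) and moderated SE come from an unpaired fit by limma 3.58.1 (lmFit, eBayes; R 4.3.3). A gene was called at a p under 0.05 after Benjamini-Hochberg adjustment over all genes. The script was tested on simulated data. The 9 genes, the lists and the alternatives were chosen with earlier results of these data known. The text names every one of the 9, SHCBP1, up to 3 called genes per list with the largest differences, and the 5 genes nearest to APLP2. MEP1B, MMP24, MME, SHC1, GGA2, GGA3 and VPS35 were named beyond this rule. Promoters of 8 of the 9 genes were matched by symbol in the RefSeq table; BACE2 was not. With 3 arrays in each group, precision is limited.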

Additional observations from a re-analysis of the deposited data

Results flagged for a closer look

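Of the probe sets outside the gene comparison, those of the poly-A spike-in controls gave a mean that was 0.43 higher under SHCBP1 shRNA on the log2 scale. For 28S ribosomal RNA the 5′ probe set was higher by 2.80 on the log2 scale, the middle one by 1.56 and the 3′ one by 0.30. The 3 probe sets of 18S ribosomal RNA were lower, with differences of -0.24 (5′), -0.34 (middle) and -0.58 (3′).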

How the results depend on the processing

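Under repeated quantile normalization, median subtraction, the median of probe sets, only probe sets without _s_at or _x_at, and a replicate block, APP ran from -1.21 to -0.95, APLP2 from -2.04 to -1.61, PSENEN from 0.85 to 0.97, APH1A from 0.49 to 0.55 and PSEN2 from 0.27 to 0.30. Leaving out each array gave -1.08 to -1.05 for APP, -1.88 to -1.85 for APLP2 and 0.82 to 0.88 for PSENEN. Scaling by the poly-A spike-in controls reversed APLP1 (-0.30) and PSEN2 (-0.15), called 60 of the other pathway genes in place of 34, and called 16709 genes in all, 16268 lower and 441 higher. With a replicate block 7092 genes were called in place of 7440, 6 of the 9 genes (APLP1 was lost) and 33 of the other pathway genes. The call of APLP1 was also lost under median subtraction, repeated quantile normalization and the median of probe sets, and that of NCSTN without _s_at or _x_at probe sets. Spike-in scaling called BACE1 and BACE2 lower and ended the calls of PSEN2 and APH1A. The labels do not say whether same-numbered samples are pairs. Deviations of same-numbered arrays correlated at 0.02, -0.05 and 0.07, and those of differently numbered arrays at -0.099 to 0.085. With so few arrays per group these values cannot decide it. Each probe set fitted on its own gave all 9 genes at least 1 called probe set.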
